A study of Mus musculus with 2 samples.

Results

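The nuclei described here come from the preoptic area (POA), carry the transcription factor gene Tcf7l2 and were taken as glutamatergic neurons by a rule. Whether each of them is a neuron was not tested. A nucleus was taken as a member when it held at least 3 unique molecular identifiers (UMIs, each 1 captured mRNA molecule) of Tcf7l2, at least 1 UMI of the vesicular glutamate transporter gene Slc17a6, and no UMI of Skor2 or Adcyap1. By this rule 181 nuclei were members, 100 in the POA-CON library and 81 in the POA-US library, out of 3211 Slc17a6-positive nuclei and 20952 nuclei that passed the filters. Levels of Tcf7l2, Slc17a6, Skor2 and Adcyap1 in the members were set by the rule and are given as a description.

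The study applied ultrasound to the POA of mice, in work on a torpor-like state, and profiled neurons of that region by single-nucleus RNA-sequencing. All mice were wild type and 6 to 9 weeks old. The POA-US library came from ultrasound-stimulated mice about 1 h after stimulation, and the POA-CON library came from mice given a sham procedure. Nuclei of 4 mice per group were pooled before sorting on DAPI and the neuronal antigen NeuN, so each condition is 1 library and no animal can be told from another. The difference between the libraries therefore has no replicate check. No test between conditions was made, no p-value is given, and the intervals are 95% intervals that cover counting error only, exact unless stated.

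Tcf7l2 belongs to the TCF/LEF family, whose members bind beta-catenin and switch on Wnt target genes when a Wnt ligand engages its receptors. In the adult mouse brain Tcf7l2 is best known from neurons of the thalamus and the medial habenula, where it takes part in their maturation. Il31ra encodes the receptor chain that binds interleukin-31, a T cell cytokine known for itch, and pairs with the oncostatin M receptor chain (Osmr). Dach1 is a nuclear cofactor that acts with Eya and related factors. The preoptic glutamatergic neurons as a whole hold many small populations that act in thermoregulation, sleep, fluid balance and reproduction.

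Motifs of the TCF/LEF family were searched in the 250 bases before the transcription start of genes that define, name or lead the members. The reason was that Tcf7l2 is the factor that defines the members. The letters searched were CTTTGAT and CTTTGAA on both strands, in promoters of RefSeq on GRCm38.p6. These letters were present in 2457 of 32851 promoters of the same length, or 7.48%. The genes searched were Tcf7l2, Il31ra, Samd3, Trp73, Dach1, Slc17a6 and the 15 with the highest levels relative to other Slc17a6-positive nuclei. Some genes were in both sets, and Skor2 and Adcyap1 of the rule were left out. Of these 18 genes, 16 had a promoter in the table, and 2 of them, Dach1 and Sema3e, held a match. Counted by promoter, as the 7.48% is, 2 of their 22 promoters held a match, which shows no excess. Both matches were CTTTGAA on the strand opposite to the gene, 109 bases before the start in Dach1 and 119 bases before it in Sema3e. The 3 promoters are shown in the direction of transcription by their annotated strand, with the match in capitals. A check against transcript sequences bore out this direction for Dach1. For Il31ra neither direction was found in a transcript, and Sema3e was not checked. Il31ra is shown for comparison as a receptor gene with no match in this window.
Dach1, chr14:98169766-98170015, minus strand: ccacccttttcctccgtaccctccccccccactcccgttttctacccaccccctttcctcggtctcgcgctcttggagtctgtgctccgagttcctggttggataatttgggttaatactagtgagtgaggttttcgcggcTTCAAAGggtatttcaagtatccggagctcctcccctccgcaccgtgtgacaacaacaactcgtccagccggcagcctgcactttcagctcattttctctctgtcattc
Sema3e, chr5:14025026-14025275, plus strand: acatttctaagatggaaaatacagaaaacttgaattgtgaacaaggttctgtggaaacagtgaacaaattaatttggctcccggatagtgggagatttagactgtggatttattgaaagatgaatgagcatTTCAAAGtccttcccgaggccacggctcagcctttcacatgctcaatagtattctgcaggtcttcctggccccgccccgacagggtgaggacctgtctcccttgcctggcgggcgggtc
Il31ra, chr13:112580663-112580912, minus strand: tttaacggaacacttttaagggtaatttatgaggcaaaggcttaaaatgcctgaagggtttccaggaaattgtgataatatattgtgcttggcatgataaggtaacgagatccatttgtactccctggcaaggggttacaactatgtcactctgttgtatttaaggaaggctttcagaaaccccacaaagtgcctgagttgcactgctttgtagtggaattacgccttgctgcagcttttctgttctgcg
The start that RefSeq gives for Il31ra lies within the longer gene of the GENCODE M21 annotation, which spans 112519898 to 112594360 on chromosome 13. A match describes letters and does not show binding.

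The filters kept nuclei with 200 to 7500 genes, at most 5% mitochondrial UMIs and at least 2000 UMIs, which left 11040 POA-CON and 9912 POA-US nuclei. Of the barcodes within the gene and mitochondrial limits, 16.7% fell under 2000 UMIs in POA-US and 5.34% in POA-CON. The upper limit on genes was the only step against doublets, and no doublet caller was run. The libraries shared 29 barcode sequences, none of them in a member. Median depth was 9624 UMIs in POA-CON members and 9901 in POA-US members, against 8759 and 8769 in other Slc17a6-positive nuclei. Nuclei without Slc17a6 had medians of 7487 and 7080. Levels are counts per 1000000 UMIs (CPM) after summing the nuclei of a library, and 1 UMI in the members is worth 0.876 CPM in POA-CON and 1.06 CPM in POA-US. A count of 0 in the members allows a level of up to 2.63 CPM in POA-CON and 3.19 CPM in POA-US.

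Members made up 7.14% (5.84 to 8.61) of Slc17a6-positive nuclei in POA-CON and 4.48% (3.57 to 5.53) in POA-US. Of all nuclei that passed the filters they were 0.906% (0.738 to 1.10) and 0.817% (0.649 to 1.01). The intervals were apart with the first denominator and overlapped with the second. The denominators moved as well, since 12.7% of passing nuclei carried Slc17a6 in POA-CON and 18.3% in POA-US. The exclusion by Skor2 removed 0 nuclei and that by Adcyap1 removed 8, 4 in each library.

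The name given to these nuclei rests on 5 markers. Tcf7l2 was set by the rule, Il31ra and Dach1 were higher in the members of both libraries, Samd3 was higher in POA-US only, and Trp73 was lower in both. Tcf7l2 (chr19:55741820-55933654, plus strand) stood at 696 CPM in POA-CON members and 483 CPM in POA-US members, against 5.70 and 5.96 CPM in the other Slc17a6-positive nuclei, as the rule required. Single members held from 3 to 29 Tcf7l2 UMIs in POA-CON, with a median of 7, and from 3 to 18 in POA-US, with a median of 5.

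Il31ra, on the minus strand, had the highest ratio in the members apart from Tcf7l2 itself. Its level was 161 CPM (139 to 186) in POA-CON and 120 CPM (99.0 to 144) in POA-US, against 6.01 and 6.87 CPM in the other Slc17a6-positive nuclei, which makes ratios of 26.8 (20.5 to 35.4) and 17.5 (13.4 to 22.8). At least 1 UMI was seen in 52.0% of POA-CON and 45.7% of POA-US members, against 3.00% and 3.76% of the others and 1.84% and 2.0% of nuclei without Slc17a6. After each nucleus was thinned to 2000 UMIs these shares were 26.0% and 18.5% in members, 1.31% and 1.16% in the others, and 0.539% and 0.691% without Slc17a6. The share in members was far above that background at either depth. Counts per nucleus ran from 0 to 16 in POA-CON, with a median of 1, and from 0 to 11 in POA-US, with a median of 0.

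Dach1 (chr14:97786853-98169765, minus strand) was broader. It reached 691 CPM in POA-CON members and 611 CPM in POA-US members, against 150 and 93.0 CPM in the others, ratios of 4.62 (4.25 to 5.02) and 6.57 (5.97 to 7.23). Its UMIs were in 74.0% and 69.1% of members and in 33.6% and 27.8% of the others, or 52.0% and 49.4% against 16.6% and 12.3% after thinning. The gene thus separated the members by level more than by presence.

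Samd3 (chr10:26229707-26272172, plus strand), which encodes a protein with a sterile alpha motif, did not set the members apart as a whole. It stood at 42.1 CPM (31 to 55.8) in POA-CON members against 44.9 CPM in the others, and at 51.0 CPM (37.6 to 67.6) against 23.7 CPM in POA-US. Trp73 (chr4:154056253-154140208, minus strand), a p53-family transcription factor, gave 3 UMIs in POA-CON members and 1 in POA-US members. The others held Trp73 at 18.3 and 6.47 CPM, so this label gene was scarcer in the members than around them. The 36 POA-CON and 14 POA-US Slc17a6-positive nuclei with at least 3 Trp73 UMIs had no Tcf7l2 UMI at all. The members are therefore called by the rule, as Tcf7l2 nuclei with Slc17a6. Il31ra, Dach1 and Samd3 were each seen in a part of them, and 62 of the 181 members held both Il31ra and Dach1.

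Slc17a6 was at 152 and 154 CPM in members and 159 and 149 CPM in the others, with at least 1 UMI required of every nucleus on either side. A Gad1 or Gad2 UMI, the sign of GABA synthesis, was present in 33.0% of POA-CON and 38.3% of POA-US members. The share was 49.8% and 52.5% among the other Slc17a6-positive nuclei and 84.6% and 78.0% among nuclei without Slc17a6. Gad2 stood at 59.6 and 70.2 CPM in members against 112 and 126 CPM in the others, and Slc17a7, the cortical vesicular transporter, gave 1 UMI in each library. The summed level of the 7 neuronal marker genes, among them Rbfox3, Snap25 and Syt1, was 17227 and 17109 CPM in members against 16833 and 16821 CPM in the others.

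The values just inside and just outside the minimum of Tcf7l2 were as follows. Among Slc17a6-positive nuclei of both libraries, Il31ra was seen in 2.54% of 2909 nuclei with no Tcf7l2 UMI, 18.7% of 75 nuclei with 1 and 39.5% of 38 nuclei with 2. On the inner side it was seen in 48.7% of 39 nuclei with 3 UMIs, 38.5% of 26 with 4, 48.2% of 56 with 5 to 7 and 55.0% of 60 with 8 or more. The level of Il31ra was 85.3 CPM in nuclei with 2 Tcf7l2 UMIs and 156 CPM in those with 3. Shares thus began to climb below the minimum of the rule, while the level also differed across it. Dach1 was present in 29.4%, 50.7% and 52.6% of nuclei with 0, 1 and 2 Tcf7l2 UMIs, and in 56.4%, 57.7%, 82.1% and 78.3% across the member bins. Within the members Il1rapl2 was at 1831 CPM in nuclei with 3 Tcf7l2 UMIs and 4588 CPM in those with 8 or more, while Samd3 went the other way, from 75.4 to 18.7 CPM. These are descriptions, and a nucleus with more UMIs in total has more of each gene.

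**Figure D1:**
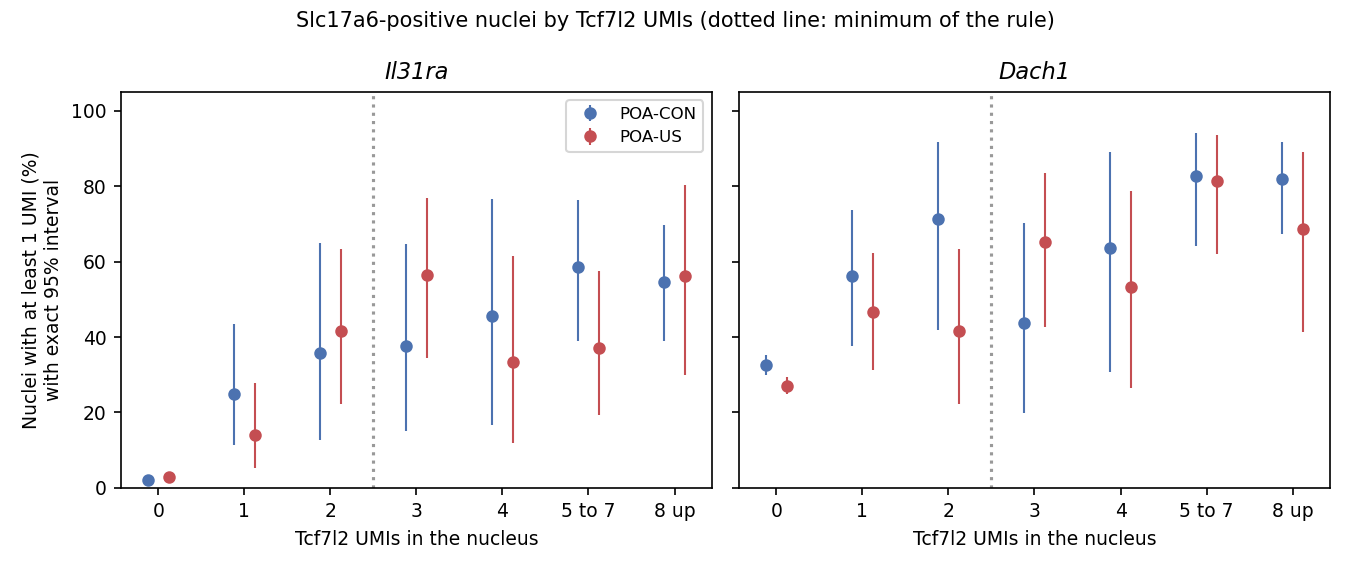
Share of Slc17a6-positive nuclei with at least 1 UMI of Il31ra (left) or Dach1 (right), in percent, against the number of Tcf7l2 UMIs in the nucleus, for POA-CON and POA-US. Points are shares, lines are exact 95% binomial intervals and the dotted line is the minimum of 3 UMIs. Il31ra goes from 2.54% without Tcf7l2 to 39.5% at 2 UMIs over both libraries, before the dotted line is reached.

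The rule leaves neighbours on each side. There were 88 POA-CON and 79 POA-US nuclei with at least 3 Tcf7l2 UMIs and no Slc17a6 UMI, of which 58 and 43 had no Gad1 or Gad2 UMI either. Il31ra stood at 92.0 CPM (72.6 to 115) in those of POA-CON and at 30.3 CPM (18.8 to 46.3) in those of POA-US. Dach1 was at 760 and 240 CPM there and Nxph1 at 1884 and 929 CPM, while the myelin gene Mbp was at 59.7 and 498 CPM, so the POA-US set also held more oligodendrocyte RNA, whose part in the difference was not tested. Conversely, 9 POA-CON and 18 POA-US nuclei with Slc17a6 held at least 3 Il31ra UMIs but too little Tcf7l2 for the rule. Their Tcf7l2 level was 69.2 and 79.5 CPM. Their Dach1 level was 692 CPM in POA-CON, close to that of the members, and 435 CPM in POA-US, below it. Over all nuclei that passed the filters, 55 in POA-CON and 50 in POA-US held at least 3 Il31ra UMIs, and 26 and 17 of these were members.

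The next comparison asked what else the members expressed beyond the genes of the rule. All genes with at least 50 UMIs in members and others together were set side by side, 15870 in number, and a gene was counted as higher or lower when log2 of CPM plus 10 differed at least 2-fold in both libraries. By this measure 77 genes were higher in members, 0.485% of those compared, and 38 were lower, 0.239%. The median gene was at -0.08 in POA-CON and -0.06 in POA-US on the log2 scale. The members were selected from the same matrix, so these values have no test.

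Nxph1 and Il1rapl2 had the highest levels relative to the others after Tcf7l2 and Il31ra. Nxph1 (chr6:8948431-9249032, plus strand) encodes neurexophilin 1, a secreted ligand of alpha-neurexins. It reached 2193 CPM in POA-CON and 1463 CPM in POA-US members, against 257 CPM in the others of each library. Nxph1 UMIs were in 100% of POA-CON members, with 2 to 92 per nucleus and a median of 22, and in 87.7% of POA-US members, with 0 to 87 and a median of 16. Il1rapl2 (chrX:137570608-138846946, plus strand), an interleukin-1 receptor accessory-like protein of synapses, stood at 3930 and 2719 CPM against 580 and 476 CPM. Its counts were far more uneven, from 0 to 233 per nucleus in POA-CON and from 0 to 167 in POA-US. Sdk1, a homophilic adhesion molecule of synaptic layers, was at 1676 and 969 CPM against 325 and 360 CPM.

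Schip1, a protein of the axon initial segment, was at 2634 and 2309 CPM against 821 and 678 CPM. Sema3e, a secreted semaphorin that signals through plexin D1, was at 107 and 88.2 CPM against 27.2 and 18.6 CPM, ratios of 3.93 (3.17 to 4.84) and 4.75 (3.69 to 6.06). In the axon guidance and adhesion list, 4 of 50 compared genes were higher in members, namely Sema3e, Sema5b, Epha3 and Cntn3, and 1 was lower, Efna5. The shares over all genes were 0.485% higher and 0.239% lower. Sema5b, a transmembrane semaphorin, was at 85.9 and 67.0 CPM against 20.3 and 19.1 CPM. Epha3, a receptor for ephrin-A ligands, stood at 510 and 445 CPM against 199 and 118 CPM. Efna5, one of those ligands, went the other way, with 141 and 133 CPM against 540 and 547 CPM, ratios of 0.261 (0.222 to 0.305) and 0.243 (0.202 to 0.290). An ephrin-A receptor was thus high where an ephrin-A ligand was low.

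Most transcription factors passed 2-fold in neither direction. Of 66 compared genes of the hypothalamic identity list, 2 were higher, Meis2 and Sox5, and 5 were lower, among them Sim1, Onecut1, Onecut2 and Zfhx3. These counts are to be read beside the 0.485% of all genes that were higher and the 0.239% that were lower. The list median was -0.35 in POA-CON and -0.24 in POA-US, against -0.08 and -0.06 over all genes. Meis2, a TALE homeobox factor, was at 705 and 539 CPM against 226 and 152 CPM, although nuclei without Slc17a6 also held it, at 586 and 297 CPM. Sox5, a SoxD factor, was at 519 and 513 CPM against 182 and 160 CPM, and the antisense-type transcript Sox5os4 moved with it, at 113 and 141 CPM against 28.8 and 26.4 CPM. The paper counted reads with the default settings of its software and does not state how strand was handled. Whether reads of the pair were shared was not checked.

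Sim1, the factor of paraventricular and supraoptic neurons, gave 6 UMIs in POA-CON and 4 in POA-US members, or 5.26 and 4.25 CPM against 50.3 and 76.2 CPM. Onecut2, a cut-homeodomain factor, gave 2 and 5 UMIs, against 44.7 and 41.1 CPM in the others. Both factors were nearly absent from the members. Zfhx3, a zinc-finger homeobox factor known from the circadian clock nucleus, remained clearly present but lower, at 202 CPM in POA-CON and 450 CPM in POA-US members against 870 and 1081 CPM.

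Thalamic and habenular identity was examined because Tcf7l2 marks those neurons. None of the 13 compared thalamic genes and none of the 3 habenular genes passed 2-fold in both libraries. Over all genes 0.485% were higher and 0.239% lower, so lists this short give few calls. The summed level of the thalamic list was 1723 CPM in POA-CON and 1922 CPM in POA-US members, against 1546 and 1468 CPM in the others. The ratios were 1.11 (1.06 to 1.17) and 1.31 (1.25 to 1.37), so the sum was higher in members of both libraries. Rora alone gave 1435 of the list's 1967 UMIs in POA-CON members and 1229 of 1808 in POA-US members. The list medians were -0.38 and 0.18, against -0.08 and -0.06 over all genes, so the typical listed gene was not higher in POA-CON. For the habenular list the ratios of the sums were 0.671 (0.537 to 0.829) and 1.10 (0.890 to 1.35). Gbx2, a thalamic homeobox gene, gave 0 UMIs in POA-CON and 1 in POA-US, and Pou4f1, which defines habenular neurons, gave 0 in both. The members' defining factor was therefore not accompanied by Gbx2 or Pou4f1 at this depth. Thalamic identity beyond these genes was not tested.

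**Figure D2:**
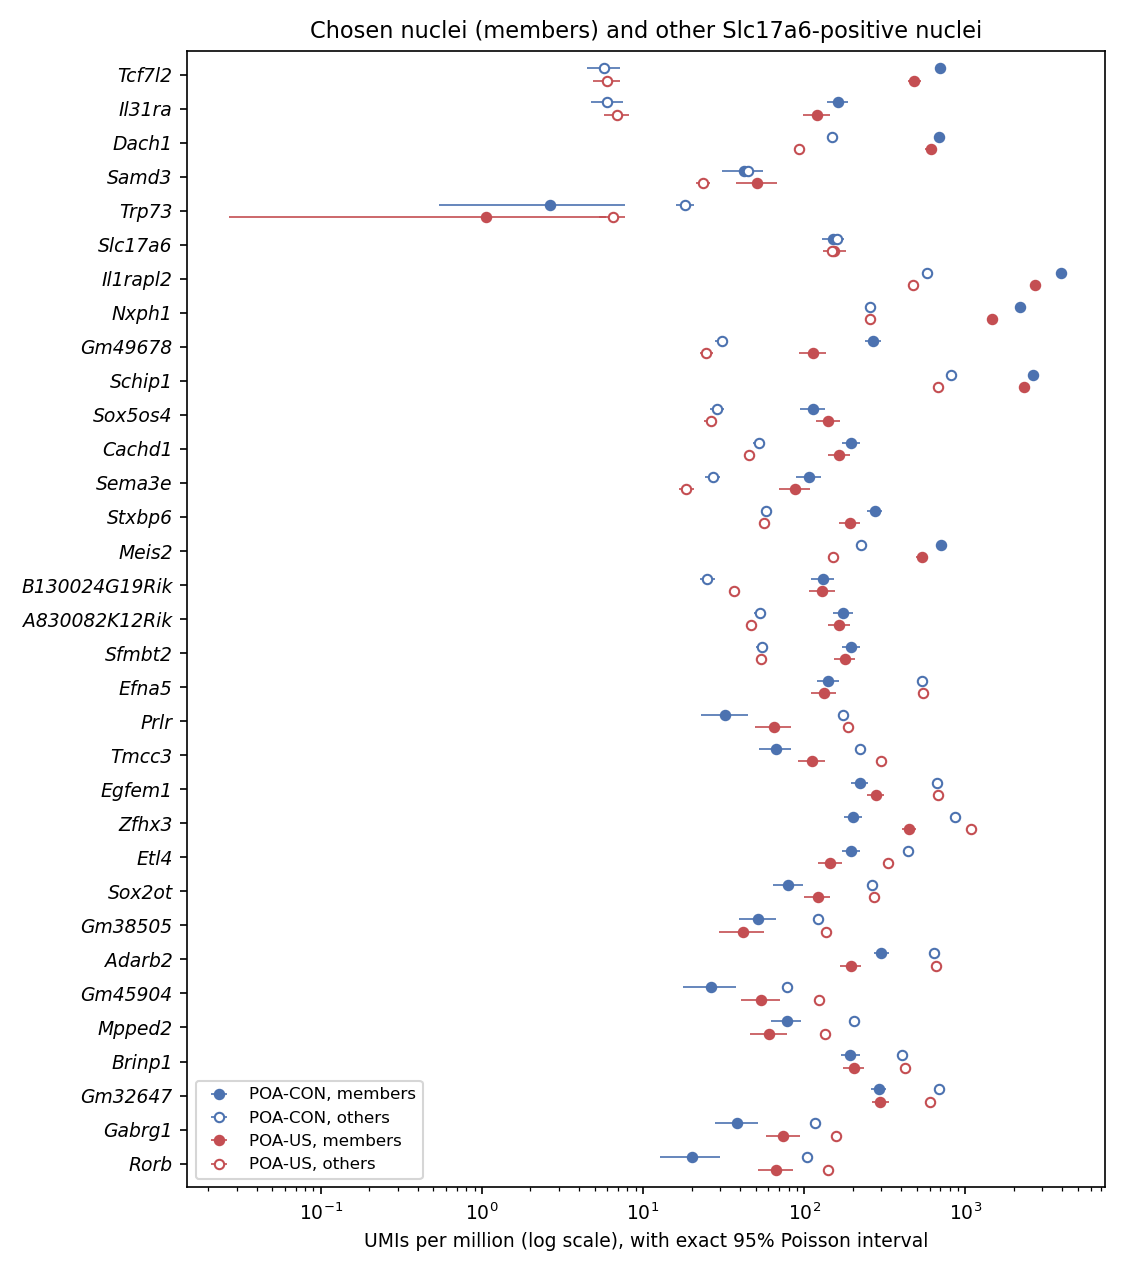
Level in CPM (log axis) of the rule's and label's genes and of the 15 highest and 15 lowest genes in members relative to other Slc17a6-positive nuclei. Filled points are members, open points are others, colours are the libraries and lines are exact 95% Poisson intervals. Il31ra sits at 161 and 120 CPM in members against 6.01 and 6.87 in others, Slc17a6 overlaps, and Trp73 is lower in members.

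The Wnt pathway genes around Tcf7l2 gave few calls, as lists of this size do when 0.485% of all genes are higher and 0.239% lower. Among beta-catenin and its nuclear partners 0 of 15 compared genes differed 2-fold in both libraries, with list medians of -0.04 and 0.11 against -0.08 and -0.06 over all genes. Ctnnb1, which encodes beta-catenin, was at 53.4 and 55.3 CPM in members against 45.4 and 50.5 CPM. Tle4, a Groucho-type corepressor that binds TCF factors, was at 308 and 268 CPM against 250 and 246 CPM. The other family members were sparse, with 3 and 7 UMIs of Lef1, 2 and 1 of Tcf7 and 7 and 7 of Tcf7l1, so Tcf7l2, chosen by the rule, was the one TCF/LEF gene with many UMIs in the members.

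Among the Wnt receptors 0 of 9 compared genes passed, and among feedback targets and inhibitors 0 of 16 did. Axin2, the classic feedback target of the pathway, was at 30.7 CPM in POA-CON and 23.4 CPM in POA-US members against 17.9 and 16.9 CPM, with ratios of 1.71 (1.16 to 2.45) and 1.39 (0.856 to 2.14). The second interval included 1. The sum of the whole feedback list had ratios of 0.946 (0.889 to 1.01) and 0.989 (0.924 to 1.06), and both intervals included 1. The list medians were -0.07 and -0.03, so Axin2 does not stand for its list. Of 9 compared ligand genes 1 was higher, Rspo3, an R-spondin that amplifies Wnt signals through Lgr receptors. It gave 52 UMIs in POA-CON and 47 in POA-US members, with ratios of 2.90 (2.10 to 3.95) and 3.76 (2.69 to 5.16). Its UMIs were in 2 of the 4 groups described further on, and without the Slc4a4 group the smaller log2 ratio was 0.55 instead of 1.11, one of 7 settings of 15 in which the gene missed 2-fold.

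Of 13 compared genes of interleukin-31 and gp130 receptor signalling, Il31ra was the only one counted as higher. Over all genes 0.485% were higher, so the count does not show the other genes of the list to be alike. The list sum, which includes Il31ra, had ratios of 1.20 (1.10 to 1.31) and 1.42 (1.30 to 1.55). Il31ra alone gave 184 of the list's 581 UMIs in POA-CON members and 113 of 549 in POA-US members. The sums therefore do not show the rest of the list to be higher. The list medians were -0.04 and 0.20, against -0.08 and -0.06 over all genes. Osmr, the partner chain of Il31ra, gave 0 UMIs in POA-CON and 2 in POA-US members. The ligand genes Il31, Osm and Lif gave 0 UMIs in members of both libraries. Il6st, the shared gp130 chain, was at 33.3 and 34.0 CPM against 21.6 and 18.5 CPM. Osmr was thus at or under the level that a count of 0 allows in each library, while the chain that binds the cytokine was seen in about as many members as not.

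Receptors for peptides, hormones and amines were mostly on neither side of the 2-fold limit. Of 46 compared neuropeptide and hormone receptors 3 were higher, Hcrtr2, Ghr and Oprk1, and 3 were lower, Prlr, Calcr and Trhr. Among all compared genes 0.485% were higher and 0.239% lower. Hcrtr2, the orexin receptor 2 of arousal circuits, was at 104 and 68.0 CPM against 34.5 and 24.1 CPM. Ghr, the growth hormone receptor, was at 378 and 395 CPM against 155 and 181 CPM. Oprk1, the kappa opioid receptor, was at 42.1 and 43.6 CPM against 14.9 and 16.6 CPM.

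Prlr, the prolactin receptor, was at 32.4 and 64.8 CPM in members against 174 and 188 CPM. Calcr, the calcitonin receptor of parental and thirst neurons, gave 11 and 8 UMIs, or 9.64 and 8.5 CPM against 37.3 and 52.0 CPM. Trhr, the receptor for thyrotropin-releasing hormone, gave 5 and 1 UMIs against 18.9 and 18.0 CPM. Prlr was thus lower in members but clearly present in POA-US, while the other two gave few UMIs.

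Among monoamine, acetylcholine and adenosine receptors 2 of 24 were higher, beside 0.485% of all genes. Drd3, the dopamine D3 receptor, was at 76.2 and 51.0 CPM against 16.0 and 12.6 CPM, and was seen in 42.0% of POA-CON and 24.7% of POA-US members. Chrm2, the muscarinic M2 receptor, was at 330 and 359 CPM against 158 and 156 CPM, close to the 2-fold limit. Of 30 compared neuropeptide genes none was higher, and Adcyap1, Trh and Oxt were lower, the first by the rule. With 0.485% of all genes higher, a count of 0 in a list of this size does not set the members apart.

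Among ion channels and inhibitory transmitter receptors calls were as few as over all genes (0.485% higher, 0.239% lower). Of 19 calcium and pacemaker channel genes 1 was higher, Cacna2d1, the alpha2delta subunit that binds gabapentin, at 2655 and 2039 CPM against 954 and 848 CPM. None of 32 potassium channels, 20 GABA and glycine receptors, 18 TRP and PIEZO channels, 7 fever receptors or 18 clock genes passed in either direction. These counts do not set the members apart or show them to be alike. The potassium channel sum was lower in members, with ratios of 0.909 (0.895 to 0.925) and 0.830 (0.815 to 0.846). The clock gene sum was higher, at 1.08 (1.03 to 1.13) and 1.13 (1.07 to 1.18). The TRP and PIEZO sum was lower in POA-CON only, at 0.781 (0.742 to 0.822). The GABA and glycine receptor sum was lower in POA-US only, at 0.876 (0.850 to 0.902). Both intervals of the fever receptor sum included 1.

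The study's own candidates for torpor and ultrasound sensing were examined in the members. Trpm2, a heat-activated TRP channel, gave 39 UMIs in POA-CON and 19 in POA-US, or 34.2 and 20.2 CPM against 27.2 and 23.7 CPM, with ratios of 1.26 (0.879 to 1.75) and 0.851 (0.507 to 1.35). Neither interval excluded 1. Esr1, the oestrogen receptor alpha, was at 22.8 and 57.4 CPM against 80.0 and 88.5 CPM. Qrfp gave 0 UMIs in POA-CON and 1 in POA-US, and Adcyap1 was 0 by the rule. Piezo2, a mechanosensitive channel of touch neurons, was at 28.9 and 24.4 CPM against 8.78 and 8.46 CPM. With 10 CPM added the log2 ratio was 1.05 in POA-CON and 0.90 in POA-US, so 2-fold was passed in 1 library, where 1 nucleus gave 20 of the 33 UMIs.

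The members fell into 4 groups when their nuclei were clustered on 20 principal components. The groups are named by their leading genes, which were chosen by the clustering and are given as identity only. The group led by Piezo2, Igf1, Itga8 and Gulp1 had 64 nuclei, 39 from POA-CON and 25 from POA-US, and is called here by Gulp1, an engulfment adaptor gene seen in 56 of them. The group led by Slc4a4, Foxp2 and Rorb had 52, 24 and 28 by library, and Slc4a4 was seen in 22 of them. The group led by Col24a1, Palld, Chrm2 and Lgr5 had 25, 12 and 13 by library, and the group led by Sorcs1, Adamtsl1 and Cdh12 had 40, 25 and 15 by library. All of them occurred in each library. At a lower resolution there were 3 groups and at a higher one 5, and the Gulp1 group stayed whole at the lower and was split at the higher.

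The label markers were spread unevenly over these groups. Il31ra was at 172 CPM in the Gulp1 group, 21.6 CPM in the Slc4a4 group, 261 CPM in the Col24a1 group and 218 CPM in the Sorcs1 group, so it was low in 1 of the 4. Samd3 had 0 UMIs in the Gulp1 group and 1 UMI in the Slc4a4 group, against 86.1 CPM in the Col24a1 group and 140 CPM in the Sorcs1 group, where 27 of 40 nuclei held it. Dach1 was in every one of the 25 nuclei of the Col24a1 group, at 1473 CPM, and in 13 of 40 nuclei of the Sorcs1 group, at 161 CPM. Tcf7l2 itself was highest in the Gulp1 group, at 996 CPM.

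Nucleus by nucleus, Samd3 and Il31ra went together while Samd3 and Piezo2 did not. Samd3 was seen in 36.0% of the members with Il31ra and in 13.0% of those without it. No member held both Samd3 and Piezo2, of 44 with Samd3 and 19 with Piezo2. In the Gulp1 group Piezo2 was at 84.9 CPM in 12 of 64 nuclei, with 20 of its 46 UMIs in 1 POA-CON nucleus, beside Drd3 at 131 CPM and Il1rapl2 at 6921 CPM. The Sorcs1 group had Il1rapl2 at 449 CPM, near the level of other Slc17a6-positive nuclei, and carried Epha3 at 1194 CPM and the substance P receptor gene Tacr1 at 115 CPM. Its second leading gene by rank, Mecom, rested on 1 nucleus that gave 37 of the 38 POA-US UMIs in members.

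The Slc4a4 group stood apart in other signs. Its nuclei had a Gad1 or Gad2 UMI in 57.7% of cases, against 18.8% in the Gulp1 group, and a median of 12191 UMIs against 7626. Summed astrocyte markers were at 286 CPM and oligodendrocyte markers at 188 CPM in this group, against 79.3 and 68.3 CPM in the Gulp1 group. Without these 52 nuclei the count of genes lower in members went from 38 to 130. Whether they hold RNA of more than 1 cell was not tested.

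**Figure D3:**
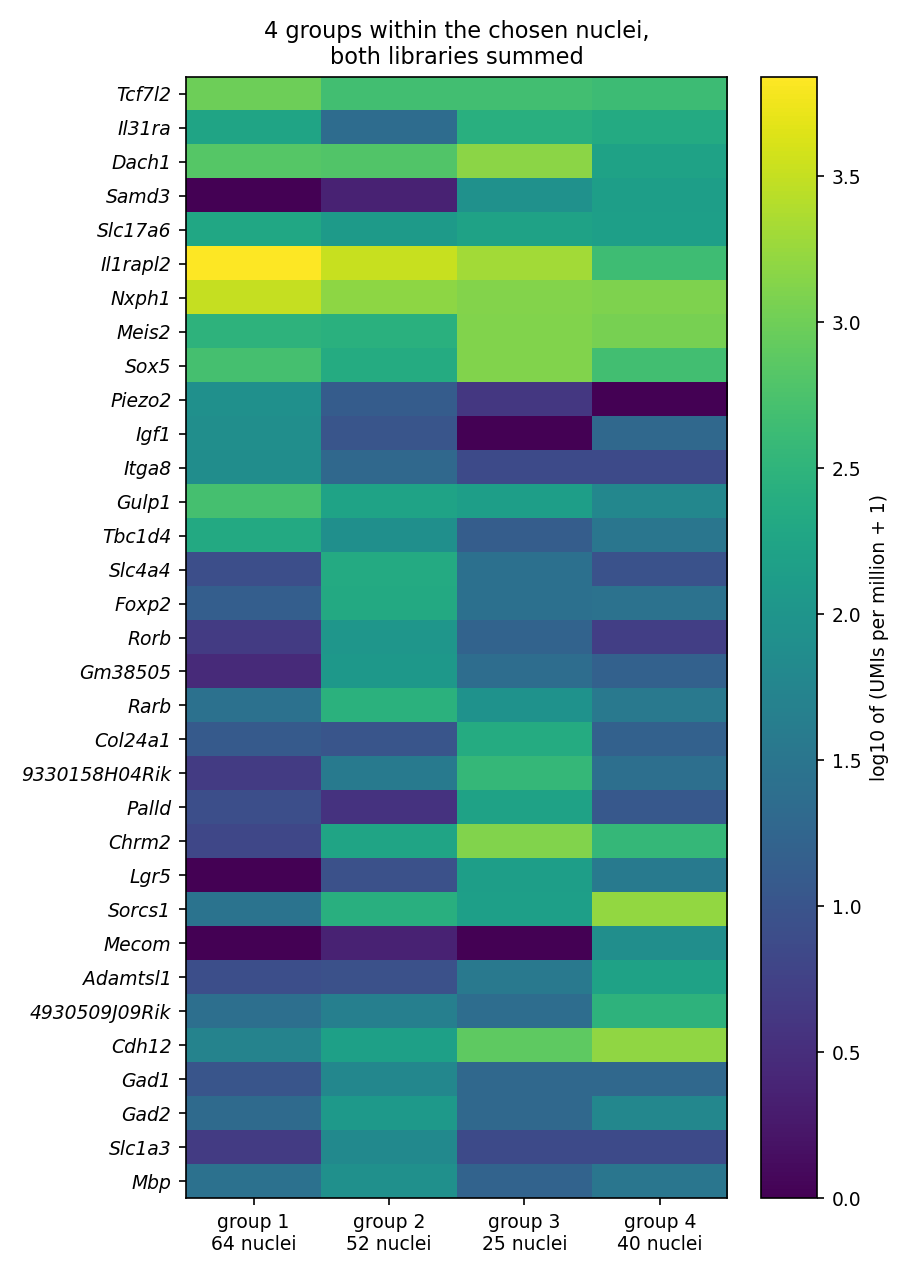
Level of selected genes, as log10 of CPM plus 1 (colour scale), in the 4 groups of nuclei within the members, both libraries summed. Rows are the label markers, leading genes of each group and the glial and GABA genes named in the text. Samd3 is at 0 in the Gulp1 group (group 1), Il31ra is lowest in the Slc4a4 group (group 2), and Dach1 is lowest in the Sorcs1 group (group 4).

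The members of the POA-US library were then compared with those of POA-CON. Of 6627 genes with at least 50 UMIs in members, 194 were at least 1.5-fold higher in POA-US, 2.93%, and 144 were at least 1.5-fold lower, 2.17%, on the scale of CPM plus 10. In the far more numerous other Slc17a6-positive nuclei, the same genes passed in 8 cases upward (0.121%) and 10 downward (0.151%), and over all genes compared there the shares were 0.14% and 0.0828%. The smaller number of member UMIs widens the scatter, so these counts cannot be set against each other. The median log2 ratio over all these genes was 0.00 in the members and in the others.

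Glial RNA differed between the libraries within the members, and each gene below is to be read beside it. The summed markers of astrocytes went from 54 UMIs in POA-CON to 234 in POA-US, a ratio of 5.26 (3.90 to 7.21) in CPM, against 1.66 in the other Slc17a6-positive nuclei. Oligodendrocyte markers went from 67 to 167 UMIs, a ratio of 3.02 (2.26 to 4.08), and precursor and newly formed oligodendrocyte markers from 6 to 84, a ratio of 17.0 (7.48 to 47.6), against 1.54 and 1.13 in the others. Slc1a3, an astrocyte glutamate transporter, gave 3 UMIs in POA-CON and 53 in 12 POA-US nuclei. Mbp, the myelin protein gene, gave 19 and 77, of which 40 in 1 nucleus, while Opalin and Ermn were at 0. Leaving out nuclei with a Slc1a3 UMI or at least 3 Mbp UMIs kept 97 POA-CON and 67 POA-US members. The part of glial RNA in the differences below was not tested beyond these values.

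Zfhx3 had the highest log2 ratio of the genes with at least 200 UMIs in members. It went from 202 CPM in POA-CON to 450 CPM in POA-US members, a ratio of 2.22 (1.89 to 2.62), against 1.24 (1.21 to 1.27) in the others. Its UMIs were in 50% and 69.1% of members, or 22.0% and 42.0% after thinning. It was higher in each of the 4 groups, with log2 ratios of 1.34, 0.81, 0.91 and 1.49, and without nuclei carrying glial UMIs the log2 ratio was 1.25 against 1.11 with them. The gene passed 1.5-fold under all 18 settings, with log2 ratios from 0.68 to 1.32.

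Trpm3, a TRP channel opened by heat and neurosteroids, went from 479 to 947 CPM, a ratio of 1.98 (1.77 to 2.20), against 1.19 in the others. It was in 60.0% and 75.3% of members, or 32.0% and 54.3% after thinning, and was higher in 4 of 4 groups. Its log2 ratio of 0.97 became 0.57 without the Slc4a4 group, just under 1.5-fold, and 0.59 without glial UMIs. Npas3, a bHLH-PAS factor shared with astrocytes, had a ratio of 1.83 (1.54 to 2.17), and its log2 ratio of 0.84 became 0.23 without the Slc4a4 group and 0.43 without glial UMIs. Its log2 ratio was 1.59 within the Slc4a4 group and 0.21, 0.32 and 0.14 within the others.

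Dpyd, which degrades pyrimidines, went from 98.1 to 187 CPM in members, a ratio of 1.91 (1.50 to 2.44), while the others gave 0.890 (0.857 to 0.925), and its log2 ratio of 0.87 became 0.52 without the Slc4a4 group, under 1.5-fold. Tmtc2, an endoplasmic reticulum mannosyltransferase, had a ratio of 2.30 (1.71 to 3.13), and its log2 ratio was -0.09 among members with at least 5 Tcf7l2 UMIs. Arhgap24, a GTPase activating protein, had a ratio of 1.90 (1.52 to 2.39), with a log2 ratio of 0.56 without glial UMIs. Esr1 went from 26 to 54 UMIs, a ratio of 2.52 (1.55 to 4.19), against 1.11 in the others. Lifr, the leukaemia inhibitory factor receptor that works with gp130, had a ratio of 2.63 (1.59 to 4.46), against 1.04. Esr1 and Lifr were each higher in 3 of the 4 groups described above. In the Sorcs1 group they went the other way, from 9 to 4 and from 11 to 2 UMIs, with log2 ratios of -0.44 and -1.26.

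Neto1 had the lowest log2 ratio of these genes. This auxiliary subunit of kainate and NMDA receptors went from 150 CPM in POA-CON to 60.6 CPM in POA-US members, a ratio of 0.404 (0.294 to 0.549), against 0.808 in the others. It was seen in 54.0% and 34.6% of members, or 23.0% and 8.64% after thinning. It was lower in all 4 groups and passed under all 18 settings, with log2 ratios from -1.50 to -0.75. The predicted gene Gm49678, itself among the genes higher in members, went from 269 to 114 CPM, a ratio of 0.423 (0.336 to 0.529), and also passed under all 18 settings.

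Rarb, the retinoic acid receptor beta, had a ratio of 0.467 (0.353 to 0.612), near that of the others at 0.606. Sdk1 had a ratio of 0.578 (0.534 to 0.626), against 1.11 (1.06 to 1.15) in the others, and a log2 ratio of -0.54 instead of -0.78 without the Slc4a4 group. Phactr1, an actin and phosphatase regulator, had a ratio of 0.535 (0.490 to 0.584), but 1 POA-CON nucleus held 355 of its 1652 UMIs there. Its log2 ratio of -0.89 became -0.74 without the top nucleus and -0.29 without the Slc4a4 group. Some of the genes highest in members also had ratios under 1, with values of 0.667 (0.624 to 0.713) for Nxph1, 0.692 (0.659 to 0.727) for Il1rapl2 and 0.745 (0.584 to 0.947) for Il31ra. Tcf7l2 itself had a ratio of 0.694 (0.617 to 0.779), within nuclei that the rule required to hold it. Members with 8 or more Tcf7l2 UMIs were 44 of 100 in POA-CON and 16 of 81 in POA-US, and those with 3 were 16 and 23, so the libraries also differed in how far their members lay from the limit of the rule. Among members with 8 or more, Nxph1 was at 2404 CPM in POA-CON and 2671 CPM in POA-US, Il1rapl2 at 4378 and 5349 CPM and Il31ra at 123 and 191 CPM. With 5 to 7 Tcf7l2 UMIs Nxph1 was at 2138 and 1362 CPM, Il1rapl2 at 4168 and 2904 CPM and Il31ra at 216 and 56.1 CPM, and with 3 or 4 the 3 genes were lower in POA-US as well. With the 4 groups weighted equally, Nxph1 was at 2129 CPM in POA-CON and 1480 CPM in POA-US. Il1rapl2 was then at 3663 and 2598 CPM and Il31ra at 186 and 146 CPM. The part of the distance from the limit, of the mix of groups and of glial RNA in the ratios of these genes was not tested.

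**Figure D4:**
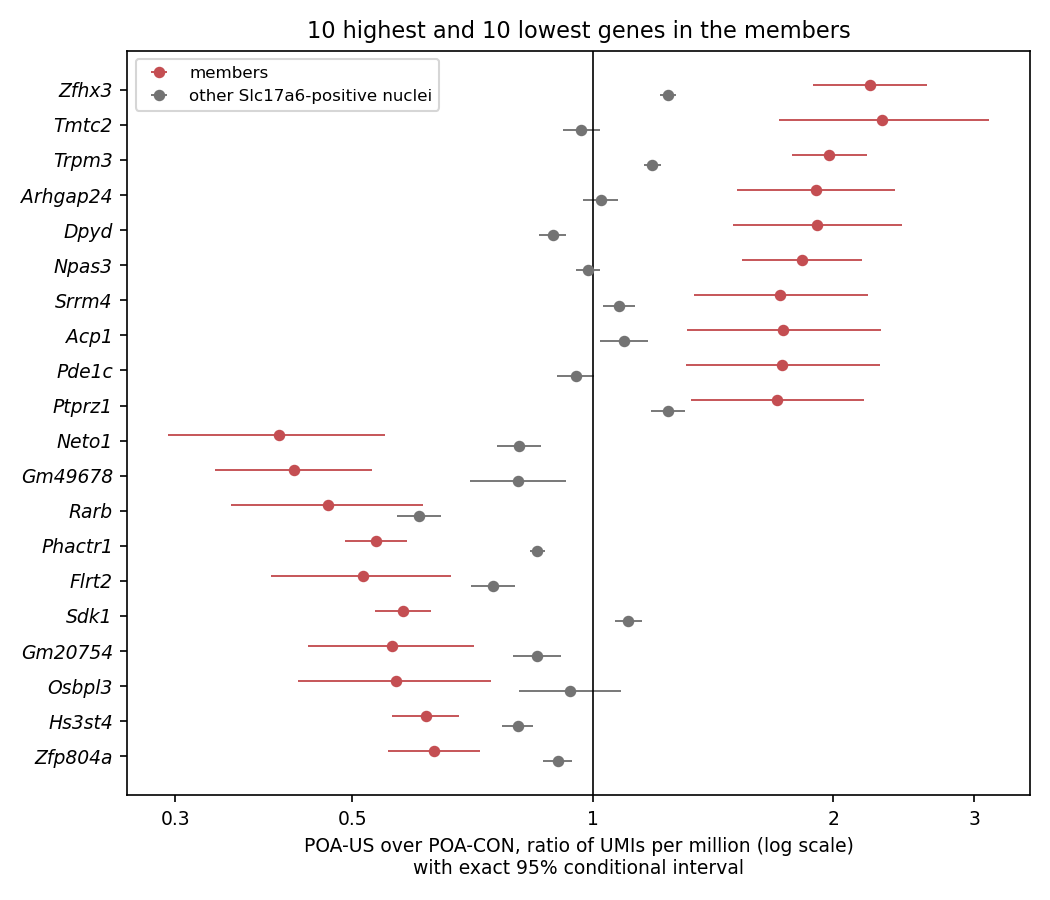
Ratio of POA-US to POA-CON in CPM (log axis) for the 10 highest and 10 lowest genes in members, with the same ratio in other Slc17a6-positive nuclei in grey. Lines are exact 95% conditional intervals and the vertical line is no difference. Zfhx3 lies at 2.22 and Neto1 at 0.404 in members, against 1.24 and 0.808 in the others, and the Dpyd and Sdk1 intervals lie on opposite sides of 1 in members and others.

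By lists, the counts between the libraries are to be read beside the 2.93% of all genes that were higher in POA-US and the 2.17% that were lower. Of 27 compared hypothalamic identity factors 6 were higher, among them Nfia, Rorb, Meis1, Zfhx3 and Npas3, and 1 was lower, Nr2f1. The Slc4a4 group held 77 of the 86 Rorb UMIs and, as given above, the highest Npas3 ratio. Of 16 neuropeptide and hormone receptors 3 were higher, Esr1, Prlr and Nr3c1, and of 12 TRP and PIEZO channels 3 were higher, among them Trpm3 and Trpc6. None of 21 glutamate receptors passed, and 1 of 28 potassium channels did, Kcna4, which was lower. The glucocorticoid-induced list summed to a ratio of 1.62 (1.29 to 2.04) in members and 1.40 in the others.

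Immediate-early genes, which neurons transcribe within minutes of activity, were the study's readout of ultrasound activation in its single-nucleus data. The study also recorded calcium signals of POA neurons and stained the region for Fos. Fos, Fosb, Nr4a1, Egr1 and Dusp1 together gave 27 UMIs in POA-CON and 40 in POA-US members, or 23.7 and 42.5 CPM, a ratio of 1.80 (1.08 to 3.05). The other Slc17a6-positive nuclei gave 26.3 and 47.5 CPM, a ratio of 1.80 (1.59 to 2.05). The ratio in members divided by that in the others was 0.996 (0.601 to 1.65, by a normal approximation to the counting error on the log scale), so a difference between them was not detectable at this depth.

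Gene by gene the member counts were small. Fos gave 0 UMIs in POA-CON and 4 in POA-US, Fosb 0 and 3, Nr4a1 18 and 18, Egr1 5 and 11 and Dusp1 4 and 4. Nr4a1, an orphan nuclear receptor, thus contributed the same number of UMIs in each library. The counts were also uneven over the groups, with 2 and 11 in the Gulp1 group, 8 and 15 in the Slc4a4 group, 5 and 11 in the Col24a1 group and 12 and 3 in the Sorcs1 group. A broader list of rapid early genes went from 126 to 160 UMIs, a ratio of 1.54 (1.21 to 1.96) against 1.67 (1.58 to 1.77) in the others. The delayed list had a ratio of 0.888 (0.813 to 0.970) against 1.04.

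**Figure D5:**
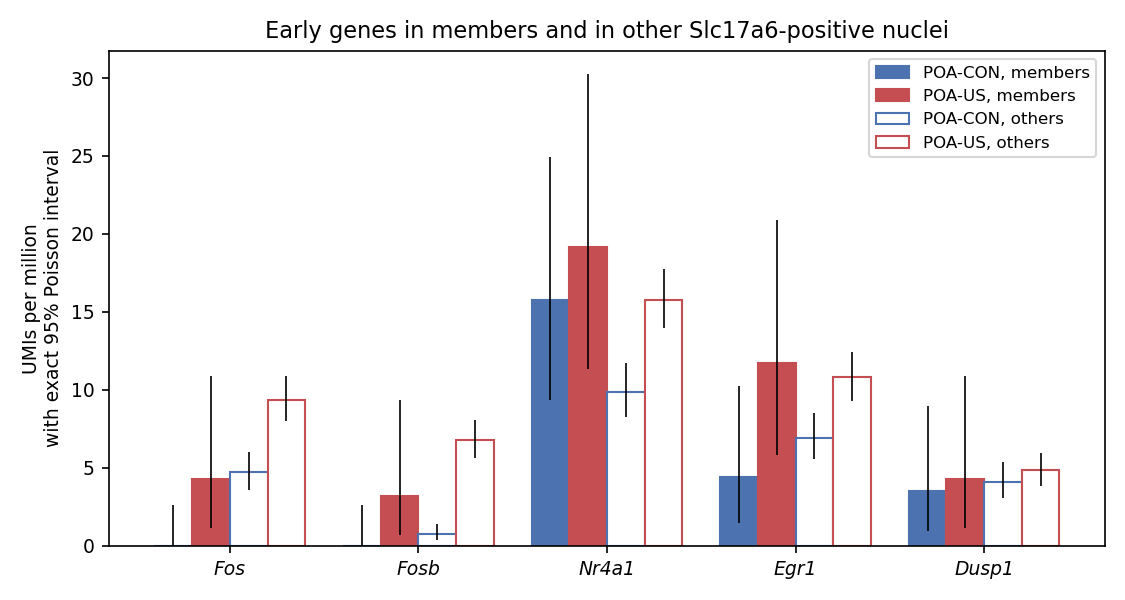
Level of 5 immediate-early genes in CPM, from 0, in members (filled bars) and other Slc17a6-positive nuclei (open bars) of POA-CON and POA-US. Lines are exact 95% Poisson intervals, and where no UMI was seen the line ends at the level of 3 counts. The members' intervals overlap between the libraries for each gene, while Fos and Fosb are higher in the POA-US others.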

How the data were processed

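Preoptic nuclei of 4 pooled mice per group were sequenced as 1 library each, POA-CON and POA-US. The authors ran Cell Ranger 6.1.1 against mm10, and the deposited UMI counts, 1 per gene and barcode, are its output without further scaling. The counts hold 101948623 UMIs in 11725 barcodes for POA-CON and 95029281 in 12075 for POA-US. Samples were grouped by their labels.

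Members were chosen by the stated thresholds. The members and the 45 gene lists (799 entries) were chosen with earlier results of these data known. Counts were summed per library and class of nuclei and scaled to CPM, and log2 ratios used 10 CPM added. Intervals are exact at 95% (Poisson for levels, Clopper-Pearson for shares, conditional for ratios) and cover counting error only. Shares of nuclei were repeated after thinning to 2000 UMIs. Members were clustered with scanpy 1.11.5 (scale 10000, 2000 variable genes, 20 components, 15 neighbours, Leiden at 0.5). Ratios were tested on simulated data with known folds. Python 3.11.15, numpy 2.4.6, scipy 1.17.1 and pandas 2.3.3 were used, and edgeR 4.0.16 in R 4.3.3 gave TMM factors. With 1 library per group no test was run.

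Named genes were those of the rule and label, the early and torpor genes of the study, the 2 highest and 2 lowest of each list with at least 50 UMIs in members, the 15 highest and 15 lowest against other Slc17a6-positive nuclei and the 10 highest and 10 lowest between libraries (200 UMIs or more), and the first 5 genes of every group within the members. Members of short lists of calls, and the pathway genes Ctnnb1, Tle4, Lef1, Tcf7, Tcf7l1, Axin2, Il6st and Osmr, were named after their values were seen. Coordinates are those of GENCODE M21 on GRCm38. Alternatives were other Tcf7l2, UMI, gene and mitochondrial limits, other comparison nuclei, thinning, equal weights, other scalings, filters and added CPM. Leaving out the Slc4a4 group, weighting the groups equally, leaving out nuclei with glial UMIs and leaving out the top nucleus were chosen after seeing the data. Values of some genes are not reported here.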

Additional observations from a re-analysis of the deposited data

Results flagged for a closer look

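Dpyd and Sdk1 were picked out because the ratio of POA-US to POA-CON had intervals on opposite sides of 1 in members and in other Slc17a6-positive nuclei. Dpyd was at 1.91 in members and 0.890 in the others, and Sdk1 at 0.578 and 1.11. The log2 ratio of Dpyd was 0.52 and that of Sdk1 -0.54 without the Slc4a4 group, both under 1.5-fold. The difference was not tested, since each condition is 1 library.

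Il31ra was picked out in nuclei outside the comparisons, those with at least 3 Tcf7l2 UMIs but no Slc17a6 UMI. It stood there at 92.0 CPM in POA-CON and 30.3 CPM in POA-US, above the 6.01 and 6.87 CPM of other Slc17a6-positive nuclei. Mbp was at 59.7 CPM and 498 CPM in these nuclei, so the libraries differed there in oligodendrocyte RNA as well.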

How the results depend on the processing

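No paired analysis was possible because each condition is 1 library of pooled mice. The members' 1141330 and 940783 UMIs and the 67 early gene UMIs limit the precision.

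The share of members was 5.21% in POA-CON and 2.38% in POA-US with at least 5 Tcf7l2 UMIs, 5.75% in POA-US with at least 2, and 9.17% and 5.77% with more Slc17a6 than Gad1 and Gad2 UMIs. Genes higher in members were 147 with 1 CPM added and 49 with 25 CPM. Genes lower were 103 with at most 5000 genes, 89 with more Slc17a6 than Gad UMIs, 127 thinned, 64 with equal weight per nucleus, 339 with 1 CPM, 13 with 25 CPM and 130 without the Slc4a4 group. Genes higher in POA-US members were 62 thinned, 420 and 732 with at least 20 and 1 UMIs, 325 and 81 with 1 and 25 CPM and 112 without the Slc4a4 group. Genes lower were 59, 303, 438, 284 and 42 under the first 5 of these and 217 with equal weight. Thinning left 1249 genes to compare. The early gene ratio in members was 0.823 thinned, and 0.499 relative to the others. Relative to the others it was 1.58 with more Slc17a6 than Gad UMIs and 1.52 both with at least 3 Slc17a6 UMIs in the others and with at most 5000 genes, and the ratio of the others was then 1.07, 1.18 and 1.54 instead of 1.80. The cause was not tested.

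Of 42 genes named against the others, 29 passed 2-fold in every setting and 0 reversed. Of 54 named between the libraries, 9 passed 1.5-fold in every setting and 11 reversed in at least 1. With at most 5000 genes the log2 ratios were -0.092 for Prlr, 0.90 for Cacna2d3, 0.89 for Adarb2 and 0.033 for Phactr1. With more Slc17a6 than Gad UMIs they were 0.21 for Penk, 0.14 for Cacna2d3 and 0.61 for Adarb2. Thinned, they were 0.22 for Penk, -0.38 for Trpc6 and -0.43 for mt-Nd1. With equal weight they were 0.054 for Penk and 0.016 for Cacna2d3. Without the Slc4a4 group they were -0.093 for Slc1a2, -0.19 for Gabrg1, 2.55 for Adarb2 and -0.39 for Slc4a4, which was at -1.05 without glial UMIs. Tmtc2 was at -0.091 with at least 5 Tcf7l2 UMIs.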
